A study of Mus musculus with 12 samples.

Results

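The cytosolic ribosomal proteins build the large (60S) and small (40S) subunits of the ribosome, and their transcripts were followed here on the polysomes of maturing mouse oocytes. Members were taken by symbol: Rpl or Rps with a number and, for some, a short suffix, together with Rplp0, Rplp1, Rplp2 and Rpsa. That rule found 84 genes among the 23235 in the table, 52 of the large and 32 of the small subunit. It used no measured value. Of the 84, 83 had a mean of at least 1 FPKM (fragments per kilobase, scaled to the size of the library, so a level per length) over the 12 libraries and were tested, among 11667 genes of the whole table. Rpl3l, a paralogue of Rpl3 known from striated muscle, was listed at 0 in all 12 libraries.

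RNA bound to polysomes, the strings of ribosomes on a translated mRNA, was sequenced in oocytes of C57BL/6 mice at postnatal day 21. The mice were Cnot6l-/- (KO) or wild type (WT). Cnot6l encodes a deadenylase subunit of the CCR4-NOT complex, which shortens poly(A) tails, and which of its exons were deleted is not stated in the labels. GV oocytes, still arrested in the first meiotic prophase with an intact germinal vesicle, were taken 48 h after PMSG (a gonadotropin given to stimulate follicles) in KO and in WT. MI oocytes had 8 h of culture, and MII oocytes 16 h, in each genotype. Each of the 6 groups (KO GV, KO MI, KO MII, WT GV, WT MI and WT MII) had 2 libraries. The labels do not say that the 2 libraries of a group came from separate animals, so p-values measure the spread between libraries, which may be technical. The labels name no other allele and no agent besides PMSG.

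A growing oocyte stores ribosomes and the mRNAs that encode their proteins, and much of this maternal mRNA is lost during meiotic maturation. In somatic cells most ribosomal protein mRNAs begin with a C followed by a run of pyrimidines, the 5′ terminal oligopyrimidine (TOP) motif, through which mTOR signalling and LARP1 set how much of each mRNA is on polysomes. In maturing oocytes, cytoplasmic polyadenylation elements in the 3′UTR, such as TTTTAT, are known to recruit mRNAs to polysomes, and AU-rich elements such as TATTTAT are bound by the decay factor Zfp36l2.

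Start windows are shown for 11 members described below that moved in different directions or had long or short runs, so that their TOP runs can be compared. Each has the 10 bases before the annotated transcript start and the first 20 bases from it, on the transcript's strand of mouse build mm9, with the longest run of C and T in capitals.
Rpl5, chr5:108329537-108329566, plus strand: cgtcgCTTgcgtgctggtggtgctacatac
Rpl28, chr7:4744557-4744586, plus strand: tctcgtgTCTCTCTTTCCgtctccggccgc
Rpl32, chr6:115758742-115758771, minus strand: ccgCCTCTTCCTTCTTCCTCggcgctgcct
Rpl35, chr2:38860632-38860661, minus strand: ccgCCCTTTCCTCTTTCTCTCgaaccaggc
Rpl41, chr10:127986205-127986234, minus strand: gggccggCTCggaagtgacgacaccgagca
Rplp2, chr7:148633539-148633568, plus strand: tcagcgTCTTCCTTTCgccgccggacgccg
Rps9, chr7:3655633-3655662, plus strand: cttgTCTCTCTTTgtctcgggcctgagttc
Rps15a, chr7:125259642-125259671, minus strand: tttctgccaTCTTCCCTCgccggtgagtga
Rps27, chr3:90017551-90017580, minus strand: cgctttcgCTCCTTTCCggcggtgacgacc
Rps27l, chr9:66793915-66793944, plus strand: aggggcgctcgaaagcgagcagttcgTCTC
Rps28, chr17:33961424-33961453, minus strand: gctcacgtgaCTCCTCTCCgccagatcgcc
The longest runs were 18 bases in Rpl35 and 17 in Rpl32, against 4 in Rps27l and 3 in Rpl5 and Rpl41. A C directly at the annotated start followed by 4 pyrimidines was found in 17 of 84 members (20.2%), against 2.49% of the tested genes with a window. A run of at least 8 pyrimidines within 20 bases on either side of the start was found in 40 members (47.6%), against 14.5% of tested genes. The annotated start can lie some bases away from the start a cell uses, so a window without a run says only that these letters are not in it.

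The 3′UTRs of the members were short, with a median of 57 bases in the 83 members that an annotation of the same build matched, against 770 bases for the tested genes. TTTTAT, read on the transcript strand only and free to overlap other motifs, was present in 16 of 83 (19.3%), against 49.3% of tested genes. It was present in 12.1% of 4066 other genes with a 3′UTR of 42 to 266 bases, the middle range of the members. The 3′UTRs of all members ran from 13 to 4722 bases, so 19.3% and 12.1% are not matched for length. Several members with the motif, such as Rpl5 (1009 bases) and Rpl7l1 (1841 bases), have 3′UTRs longer than that range. TATTTAT was present in 1 member, Rps15a (1.20%), against 23.7% of tested genes and 4.21% of the genes with 42 to 266 bases. The 3′UTR of Rps15a lies outside that range. Sites are shown for 6 of the 7 members that held TTTTAT among the 12 with the highest share of their GV level left at WT MII, with the motif in capitals and up to 9 bases on each side.
Rps27l, chromosome 9, TTTTAT at base 105 of 168 of the 3′UTR: attgtttgaTTTTATaaagtctac
Rplp2, chromosome 7, TTTTAT at base 28 of 34: ataaagtctTTTTATg
Rps2, chromosome 17, TTTTAT at base 5 of 43: gggtTTTTATatgagaaaa
Rpl32, chromosome 6, TTTTAT at base 17 of 45: gtgtgcatgTTTTATgtttaaata
Rps15a, chromosome 7, TTTTAT at base 122 of 4722: gctgtgaggTTTTATgtagatatt
Rpl37a, chromosome 1, TTTTAT at base 111 of 244: tgttctattTTTTATtttcgaaag
The site of Rps2 stands 5 bases into its 3′UTR, and that of Rplp2 ends 1 base before the end of its 3′UTR. Rps15a is listed with a 3′UTR of 4722 bases, far longer than that of the other small-subunit members, whose median was 48.5 bases with Rps15a among them.

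Ribosomal protein mRNAs were among the most abundant on polysomes at GV and took up a smaller share of the signal at each later stage. They made up 5.37% ± 0.142 of all FPKM in KO GV, 3.47% ± 0.0316 in KO MI and 2.52% ± 0.0133 in KO MII libraries (SD, n = 2 each, as in all such values below). In WT they made up 5.11% ± 0.0812 at the GV stage, 2.59% ± 0.0308 at the MI stage and 2.27% ± 0.0890 at the MII stage. The shares of the KO libraries lay above those of the WT libraries at each stage, and the gap was widest at MI. Without the 5 members of highest mean level (Rpl41, Rpl35, Rps29, Rps13 and Rpl5), the shares were 4.36%, 2.58% and 1.84% in KO and 4.06%, 1.92% and 1.45% in WT at GV, MI and MII. With 2 libraries a group, an exact permutation test of a share could not fall below 0.05, and none was run. In bulk RNA, fewer cells of a type and less RNA per cell cannot be told apart.

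**Figure D1:**
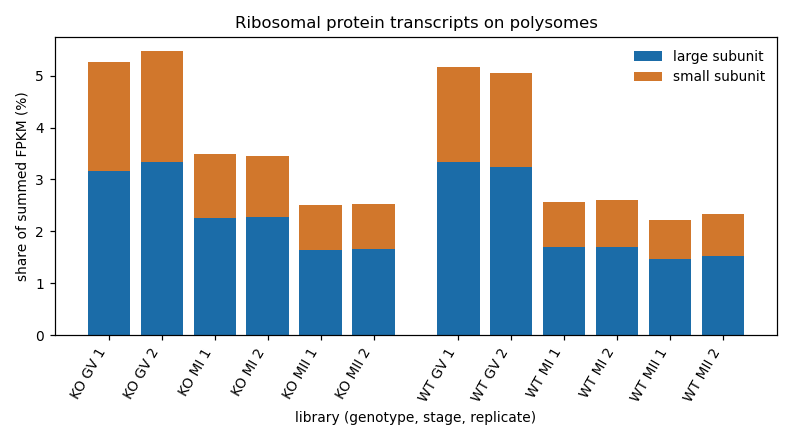
Stacked bars give the share of summed FPKM (%, vertical axis) taken by large-subunit and small-subunit members in each of the 12 libraries (horizontal axis, KO left of WT). The KO share steps down at MI and again at MII, while the WT share has its main step at MI, to 2.59% ± 0.0308.

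The typical member kept more of its polysome-bound level through maturation in KO than in WT. The median FPKM over the members, per library, was 530 and 624 at KO GV, 451 and 464 at KO MI, and 208 and 207 at KO MII. In WT it was 575 and 609 at the GV stage, 196 and 197 at the MI stage and 75.5 and 86.3 at the MII stage. Set against GV in the same genotype, the median member was left with 89.6% at KO MI and 41.6% at KO MII, and with 32.7% at WT MI and 14.3% at WT MII. Over all genes with a mean of at least 1 FPKM at GV in that genotype, the medians were 110% and 68.7% in KO (11817 genes). In WT they were 47.5% and 30.8% (11798 genes). In WT, 33 of 83 members were below 10% of their GV level at MII, and in KO 0 were. That count was not made over all genes, whose median at MII was also lower in WT than in KO.

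**Figure D2:**
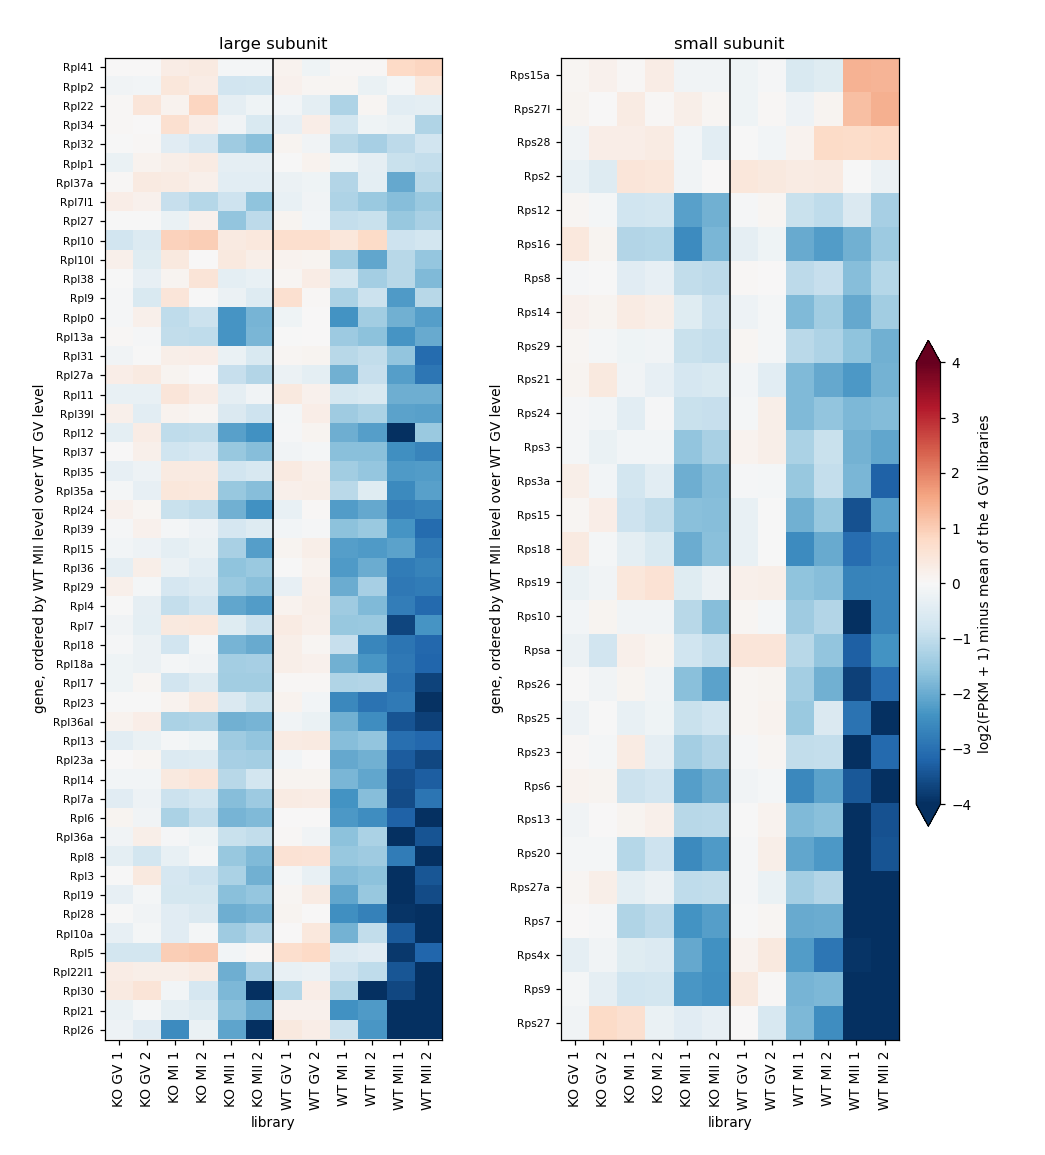
Each row is a tested member (a few are not shown) and each column a library, with large-subunit members in the left panel and small-subunit members in the right, ordered by the share of the GV level left at WT MII. Colour gives log2(FPKM + 1) minus the mean of the 4 GV libraries: most rows turn blue at WT MI and further at WT MII, later and less in KO, and Rps15a, Rps27l, Rps28 and Rpl41 are red at WT MII.

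By level, the members differed widely among themselves. Rpl41, the smallest ribosomal protein, had the highest mean level, with 3204 and 3238 FPKM at KO GV, 3884 and 4134 at KO MI, and 3035 and 3049 at KO MII. In WT it had 3488 and 2859 FPKM at the GV stage, 3304 and 3330.0 at the MI stage and 5554 and 5753 at the MII stage. The WT MII libraries were above all 10 others for this gene. Rpl35, a large-subunit protein near the exit of the peptide tunnel, had 2309 and 2541 FPKM at KO GV, 3719 and 3730.1 at KO MI, and 1732 and 1866 at KO MII, against 3746 and 3337, 1118 and 997, and 611 and 618 in WT GV, MI and MII. Here the order was the opposite, with WT MII lowest. Rps29 led the small subunit, with 2756 and 2445 FPKM at KO GV, 2288 and 2370.1 at KO MI, and 1406 and 1326 at KO MII. In WT, Rps29 had 2758 and 2435 FPKM at the GV stage, 1222 and 1106 at the MI stage and 849.7 and 684 at the MII stage. Shorter transcripts tended to be listed higher. Across the 83 members matched to a transcript, Pearson's r between log2 level and log2 transcript length was -0.52 to -0.29 over the 12 libraries. These members share libraries and gene models. They include Rpl3l, listed at 0 throughout, and leave out Rpl41, which was not matched.

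Several properties of the members bear on single values. Near-identical copies elsewhere in the genome (at least 95% identity over at least 80% of the transcript, mostly processed pseudogenes in this family) were found for 45 of 83 members, 317 in all, with 29 for Rpl7a and 25 for Rps2. How the authors counted reads that match several copies is not given in the sources used here, so levels of these members are uncertain. Among the genes described below, no such copy was found for Rpl5, Rpl14, Rpl23, Rpl35, Rps15a, Rps19, Rps27l and Rps29, while Rpl10 had 9, Rps12 had 18, Rps28, Rps4x and Rpl26 had 7 each and Rps27 and Rps13 had 5 each. In 5 members at least 20% of the exon bases also lie in exons of a gene on the opposite strand, namely Rpl23a (Tlcd1), Rpl5 (Fam69a), Rpl31 (Tbc1d8), Rpl35 (Wdr38) and Rps25 (Ccdc84). Whether the counting used strand is not given, so reads of each pair cannot be told apart.

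Facts of the whole series were as follows. Summed FPKM ran from 884142 to 1663871 per library, and 9064 to 13319 genes were above 0; read depth is not given. Across members, Pearson's r of log2 values between the 2 libraries of a group was 0.873 (WT MII) to 0.985 (WT GV), against 0.865 to 0.949 across all genes. Cnot6l was at 6.28 and 21.6 FPKM at KO GV, 23.5 and 16.5 at KO MI, and 16.4 and 16.0 at KO MII, against 38.7 and 16.1, 68.5 and 47.9, and 65.2 and 49.4 in WT GV, MI and MII, so at GV the genotypes overlapped. All 12 oocyte markers averaged at least 1 FPKM in every group. The summed level of 16 cumulus and granulosa markers was 167 to 230 FPKM in KO GV, 154 to 181 in KO MI and 88.1 to 132 in KO MII. In WT it was 312 to 337 at GV, 124 to 138 at MI and 56.0 to 80.7 at MII. Foxl2, a defining granulosa factor, was listed at 0 in all 12 libraries. Single markers went different ways at MI. Cyp19a1 had 101 and 92.0 FPKM in KO MI, against 36.5 and 32.8 in WT MI. Ptx3 had 11.15 and 3.71 in KO MI, against 32.1 and 40.2 in WT MI, and Tnfaip6 was also lower in KO MI. Inha had 113 and 152 FPKM in KO GV and 201 and 239 in WT GV, and was at 0 in both WT MII libraries. The sums overlapped between KO GV and KO MI, and their part in the results was not tested.

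At GV the genotypes were close for most members, and a few of the most abundant were lower in KO. Differences were tested with limma on log2(FPKM + 1) over all tested genes, with calls at a Benjamini-Hochberg adjusted p below 0.05. Of 83 members 6 fell and 0 rose (12 lower and 1 higher at an unadjusted p below 0.05), against 1.4% of all tested genes called lower and 0.163% higher. The median difference was -0.06 in the members and -0.06 in all genes. The KO libraries lay wholly above the WT libraries for 17 members and below them for 34, against 17.9% and 24.2% of all genes. The 6 were Rpl5, Rpl10, Rpl11, Rpl13, Rpl35 and Rps2. Rpl5, which forms the 5S ribonucleoprotein with Rpl11 and 5S rRNA and can bind Mdm2, had 729 and 725 FPKM in KO GV, against 1925 and 2102 in WT GV. The KO libraries lay far below the WT libraries, a log2 difference of -1.47 ± 0.18 (SE, limma adjusted p = 0.00209). Rpl10, the late-joining protein near the peptidyl transferase centre, had 559 and 659.9 FPKM in KO GV, against 1516 and 1523 in WT GV (log2 difference -1.32 ± 0.11, limma adjusted p = 1.66e-04).

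Rps2, a small-subunit protein at the mRNA entry site, had 752 and 646 FPKM in KO GV and 1271 and 1217 in WT GV (log2 difference -0.84 ± 0.11, limma adjusted p = 0.00283). Rpl13 (1168 and 1296 in KO GV, 1953 and 2013 in WT GV), Rpl11 (852 and 839 in KO, 1368 and 1179 in WT) and Rpl35 moved by -0.69, -0.59 and -0.55 on the log2 scale. Those 3 calls are less secure. Without KO GV replicate 1 or WT GV replicate 1, limma's adjusted p became 0.0766 and 0.0753 for Rpl13 and 0.0909 and 0.118 for Rpl35. Without WT GV replicate 2 it was 0.111 for Rpl13, and the call of Rpl11 was lost without any of the 4 GV libraries, with adjusted p up to 0.268. After each library was scaled to the same median gene, 5 of the 6 were still called lower (0.9% of all genes lower and 0.171% higher) and Rpl11 was not (adjusted p = 0.111). Under TPM, limma no longer called Rpl13 (adjusted p = 0.0936), Rpl35 (0.212) or Rpl11 (0.292). Under quantile normalization it no longer called Rpl35 (0.38) or Rpl11 (0.177). In a fit of the 4 GV libraries alone, limma called 0 of 83 members (20 lower and 7 higher at an unadjusted p below 0.05, lowest adjusted p = 0.0844).

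From GV to MI in KO, members were called in both directions and most were not called. Of 83 members, 8 rose and 11 fell, against 8.89% of all genes called higher and 1.35% lower, and the median was -0.16, against 0.26 over all genes. The KO MI libraries lay wholly above the KO GV libraries for 23 members and below them for 40, against 37.3% and 18.7% of all genes. With libraries scaled to the same median gene, 3 rose and 23 fell, against 4.86% and 1.86% of all genes, and in a fit of the KO GV and KO MI libraries alone 18 fell. The 8 that rose were Rpl5, Rpl10, Rpl11, Rpl14, Rpl35, Rpl41, Rps2 and Rps19. Rpl5 had 2385 and 2479.8 FPKM in KO MI and 729 and 725 in KO GV (log2 difference 1.74 ± 0.18, limma adjusted p = 1.13e-04). Rpl10 had 1819 and 1889 FPKM in KO MI and 559 and 659.9 in KO GV, a difference of 1.61. Rps2 rose by 0.89, Rps19 by 0.74 and Rpl11 by 0.68. After median scaling, limma no longer called Rps19 (adjusted p = 0.0718) or Rpl11 (adjusted p = 0.0932). Under TPM it no longer called Rps19 (adjusted p = 0.692), Rpl11 (0.854) or Rps2 (0.213). The same 3 calls were lost under quantile normalization (limma adjusted p = 0.217, 0.539 and 0.0663). This comparison shares the KO GV libraries with that of the genotypes at GV, so the same KO GV values enter both.

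Among the 11 that fell in KO were Rpl36al, a paralogue of Rpl36a, and Rps16 and Rps7 of the small subunit. Rpl36al had 446 and 463 FPKM in KO MI, against 1162 and 1283 in KO GV (log2 difference -1.42 ± 0.19, limma adjusted p = 6.12e-04). Rps16 had 303 and 307 FPKM in KO MI, against 913 and 733 in KO GV (-1.42). Rps7 had 352 and 394 FPKM in KO MI, against 821 and 787 in KO GV (-1.11). For all 3, the MI libraries lay below the GV libraries by more than the gap between replicates. Rpl6, Rpl7l1, Rpl13a, Rpl23a, Rpl24, Rpl32 and Rpl37 of the large subunit also fell. Of these, Rpl13a had 176 and 175 FPKM in KO MI, against 363 and 340.0 in KO GV. The count of those that fell was 4 without KO GV replicate 1 or 2 or KO MI replicate 1 or 2, and 23 without WT MII replicate 1 or 2. The count of those that rose was 5 without KO MI replicate 2.

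In WT the same interval brought a fall of most members. From GV to MI, 65 of 83 members fell and 0 rose (69 lower and 1 higher at an unadjusted p below 0.05), against 21.7% and 3.06% of all genes. The members' median was -1.64, against -0.87 over all genes. The WT MI libraries lay wholly below the WT GV libraries for 76 members and above them for 1, against 55.2% and 9.38% of all genes. Under median scaling, 33 fell and 7 rose, against 5.98% and 8.25% of all genes. Rpl28, a large-subunit protein, had 149 and 124 FPKM in WT MI, against 879 and 823 in WT GV (log2 difference -2.64 ± 0.15, limma adjusted p = 1.94e-06). Rpl23, a large-subunit protein that can also bind Mdm2, had 38.8 and 30.2 FPKM in WT MI, against 262 and 224 in WT GV (-2.79). Rpl21 had 70 and 78.7 FPKM in WT MI and 432 and 431 in WT GV (-2.52). In all 3 both WT MI libraries lay far below the WT GV libraries.

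On the small subunit, Rps20 had 118 and 101 FPKM in WT MI, against 489 and 584 in WT GV (-2.28). Rps6, the substrate of S6 kinase, had 52.5 and 72.3 FPKM in WT MI, against 289 and 306 in WT GV (log2 difference -2.25 ± 0.27, limma adjusted p = 3.18e-04). Rps4x, encoded on the X chromosome, had 144 and 90.4 FPKM in WT MI, against 752 and 894 in WT GV (-2.83, limma adjusted p = 0.00841). Its call was lost without WT GV replicate 2 (adjusted p = 0.063) or WT MI replicate 2 (adjusted p = 0.0581). Rps29 moved less, with -1.16. The call of Rplp0, the stalk base, which had 105 and 213 FPKM in WT MI against 489 and 564 in WT GV was made as deposited. After median scaling none of Rps29 (adjusted p = 0.118), Rplp0 (0.0569) and Rps4x (0.0728) was called. Rpl10, Rps2 and Rps28 were among the 18 members not called: Rps2 had 1165 and 1199 FPKM in WT MI, against 1271 and 1217 in WT GV.

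**Figure D3:**
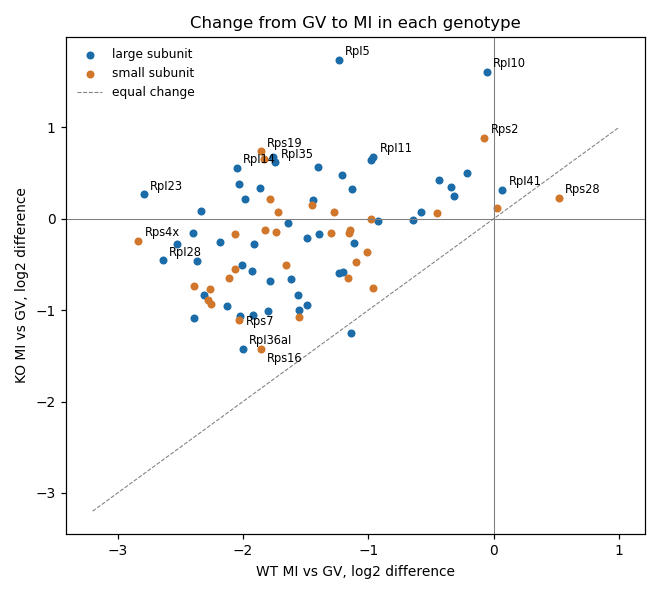
Each point is a tested member, with the log2 difference of FPKM + 1 between MI and GV in KO on the vertical axis and in WT on the horizontal axis, coloured by subunit; the dashed line marks equal change. Nearly all points lie above the dashed line, and Rpl5 and Rpl10 stand highest on the KO axis, at 1.74 and 1.61.

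Across the 83 members the stage changes of KO and WT, which share no library, had a Pearson's r of 0.42 and a Spearman's rho of 0.40, given as a description. The difference between them was tested as an interaction (KO change minus WT change). It was above 0 for 81 of 83 members, against 10044 of 11667 genes. It was called for 43 members, all in that direction (60 higher and 0 lower at an unadjusted p below 0.05), against 14.4% of all genes called higher and 0.266% lower. The median was 1.32 in the members and 1.13 in all genes. Once scaled to the same median gene, 7 were called higher and 3 lower, against 0.591% and 0.977% of all genes. The interaction was then above 0 for 48 members and below 0 for 35, against 6615 and 5046 genes.

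At MI most members were higher in KO than in WT. Of 83 members 63 rose and 0 fell (72 higher and 0 lower at an unadjusted p below 0.05), against 27.9% of all genes called higher and 0.463% lower. The libraries of the genotypes did not overlap, with KO above, for 80 of 83 members and with KO below for 0, against 69.5% and 3.13% of all genes. The median difference was 1.21, and that of all genes 1.03. As deposited, the difference was above 0 for 82 of 83 members and 10445 of 11667 genes. Under median scaling it was above 0 for 52 members and 6751 genes. On the median-scaled values, 11 were called higher and 5 lower, against 1.88% and 2.83% of all genes. The members' median thus exceeded that of all genes by 0.18 as deposited and by 0.02 under median scaling.

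Among the members called, Rpl23, Rpl14 and Rps19 were furthest above that common shift; Rpl30 and Rps27 had log2 differences of 2.35 and 2.32 and did not pass the test. Rpl23 had 263 and 306 FPKM in KO MI, against 38.8 and 30.2 in WT MI (log2 difference 3.01 ± 0.33, limma adjusted p = 2.55e-04). Rpl14, a large-subunit protein, had 1362 and 1461 FPKM in KO MI, against 293 and 246 in WT MI (2.39 ± 0.14, limma adjusted p = 6.64e-06). Rps19, the gene most often mutated in human Diamond-Blackfan anaemia, had 885 and 962 FPKM in KO MI, against 210.5 and 197 in WT MI (2.17 ± 0.13, limma adjusted p = 6.62e-06). In these 3 genes both KO MI libraries lay far above both WT MI libraries. Rpl28 had 589 and 543 FPKM in KO MI, against 149 and 124 in WT MI (2.05), and Rps13 had 2002 and 2127, against 544 and 586 (1.87). At the other end, Rpl41 and Rpl10 were called higher by 0.27 and 0.34 as deposited. Their direction turned to -0.75 and -0.69 after median scaling, so for them, as for other members, it depends on the scale. Their calls were also lost without single MI libraries. The log2 difference was 0.19 for Rpl10 without WT MI replicate 1 and 0.23 for Rpl41 without KO MI replicate 2. Without KO MI replicate 1 or 2, 39 or 36 members were called higher.

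From MI to MII both genotypes lost further signal. In KO, 44 of 83 members fell and 0 rose (71 lower and 0 higher at an unadjusted p below 0.05), against 7.18% of all genes called lower and 0.163% higher, with a median of -1.03 in the members and -0.59 in all genes. Under median scaling, 7 fell and 0 rose, against 0.566% and 0.943% of all genes. Rpl35a had 281 and 243 FPKM in KO MII, against 1081 and 1076 in KO MI (log2 difference -2.04 ± 0.20, limma adjusted p = 2.16e-04). Rps26, at the mRNA exit of the small subunit, had 226 and 166 FPKM in KO MII, against 791 and 668 in KO MI (-1.90). Rps9 had 172 and 159, against 502 and 519.5 (-1.62). For 79 of 83 members the KO MII libraries lay wholly below the KO MI libraries and for 0 above, against 54.9% and 5.67% of all genes. The count of members that fell was 22 or 20 without KO MI replicate 1 or 2, 27 without KO MII replicate 1, and 67 without WT MII replicate 1 or 2.

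In WT, 55 of 83 members fell and 3 rose from MI to MII, against 16.4% of all genes called lower and 5.68% higher. The WT MII libraries lay wholly below the WT MI libraries for 61 members and above them for 5, against 30.8% and 17.5% of all genes. The median was -1.17 in the members and -0.27 in all genes, and with libraries scaled to the same median gene 43 fell and 7 rose, against 13.5% and 11% of all genes. Among the 7 comparisons of groups, the members' median lay furthest from that of all genes here. Rps9 had 20.4 and 31.2 FPKM in WT MII, against 239 and 249 in WT MI (log2 difference -3.22 ± 0.21, limma adjusted p = 2.90e-06). Rps27a, which encodes ubiquitin fused to a small-subunit protein, had 19.9 and 27.6 FPKM in WT MII, against 192 and 219 in WT MI (-3.07). Rpl5 had 81.5 and 132 FPKM in WT MII, against 825 and 886 in WT MI (-3.03). All 3 lay far below their MI level in both WT MII libraries. In a fit of the WT MI and WT MII libraries alone, 0 of 83 members were called in either direction by limma (47 lower and 3 higher at an unadjusted p below 0.05, lowest adjusted p = 0.0582).

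The largest log2 changes in that step came from values near 0. Rpl26 was listed at 0.02 FPKM in each WT MII library, against 203 and 72.3 in WT MI (log2 difference -6.91 ± 1.55, limma adjusted p = 0.00954), and it was at 85.2 and 0.01 in the KO MII libraries. A value next to 0 in this format can be a failed estimate, and without WT MI replicate 1 the call was lost (adjusted p = 0.0686). Rps27, a zinc-finger protein of the small subunit, had 0.65 and 26.1 FPKM in WT MII, against 269 and 165 in WT MI (-4.98). Rpl22l1, the paralogue of Rpl22, had 11 and 0 FPKM in WT MII, against 71.1 and 62.6 in WT MI (-4.29). In each of these the 2 libraries of a group differ so much that the size of the change is poorly fixed.

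In WT, 3 members rose in this step. Rps27l, a paralogue of Rps27 known as a p53 target, had 1472 and 1734 FPKM in WT MII, against 557 and 693 in WT MI (log2 difference 1.36 ± 0.15, limma adjusted p = 1.04e-04). Rpl41 rose by 0.77 (adjusted p = 7.45e-05). Rps15a had 44.4 and 43.1 FPKM in WT MII, against 10.2 and 11.2 in WT MI (1.94, limma adjusted p = 0.00299), a low level for a ribosomal protein gene. FPKM is a level per length, and the transcript matched to Rps15a has 5130 bases, against a small-subunit median of 639.5. Whether this length lowers its listed level was not tested. None of the 3 rose in KO: Rps27l had 747 and 673 FPKM in KO MII and 808 and 663 in KO MI, and Rps15a had 14.5 and 14.5 in KO MII and 16.8 and 20.1 in KO MI. Rps28, with 1101 and 1144 FPKM in WT MII and 724 and 1128 in WT MI, did not pass the test in WT.

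**Figure D4:**
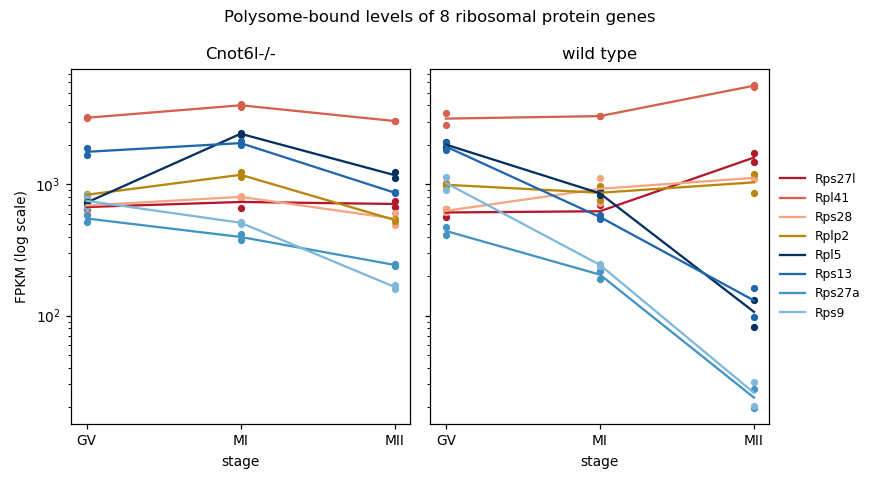
FPKM (log scale, vertical axis) of selected members at GV, MI and MII (horizontal axis) in KO (left panel) and WT (right panel); points are libraries and lines join group means. In WT the lines of Rps27l, Rpl41, Rps28 and Rplp2 stay level or climb to MII while those of Rpl5, Rps13 and Rps27a drop, and in KO the lines stay closer together.

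At MII the members stood apart most between the genotypes, in both directions. Of 83 members 59 rose and 7 fell in KO relative to WT, against 25.4% of all genes called higher and 3.2% lower, with a median of 1.47 in the members and 0.81 in all genes. Both KO libraries lay above both WT libraries for 64 members and below them for 7, against 48.9% and 10.6% of all genes. Once scaled to the same median gene, 36 were higher and 11 lower, against 14.5% and 10.4% of all genes. Rpl5 had 1111 and 1242 FPKM in KO MII, against 81.5 and 132 in WT MII (log2 difference 3.49 ± 0.18, limma adjusted p = 4.74e-07). Its partner Rpl11 had 814 and 947 in KO MII, against 269 and 265 in WT MII (1.71). Rps27a had 241 and 246 FPKM in KO MII, against 19.9 and 27.6 in WT MII (3.32 ± 0.19, limma adjusted p = 8.47e-07). Rpl36a had 282 and 265, against 25.7 and 46.6 (2.95).

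Rps4x had 165 and 128 FPKM in KO MII, against 44 and 6.45 in WT MII (limma adjusted p = 0.00487). Rps27 had 673 and 742 FPKM in KO MII, against 0.65 and 26.1 in WT MII (6.73 ± 0.97, limma adjusted p = 5.64e-04), a size that rests on the low WT values. Rpl22l1 had 31.8 and 50.4 FPKM in KO MII, against 11 and 0 in WT MII (3.57, limma adjusted p = 0.00976), and its call was lost without KO MII replicate 2 (adjusted p = 0.07). In all 3 the KO libraries were each above both WT libraries.

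The 7 members lower in KO at MII were Rpl32, Rpl41, Rplp2, Rps12, Rps15a, Rps27l and Rps28. Rpl41 had 3035 and 3049 FPKM in KO MII, against 5554 and 5753 in WT MII (log2 difference -0.89 ± 0.08, limma adjusted p = 2.06e-05). Rps27l had 747 and 673 FPKM in KO MII, against 1472 and 1734 in WT MII (-1.17). Rps15a had 14.5 and 14.5 FPKM in KO MII, against 44.4 and 43.1 in WT MII (-1.53, limma adjusted p = 0.0087). Rps28 had 609.6 and 489 FPKM in KO MII, against 1101 and 1144 in WT MII (-1.04). Rps12 had 66 and 78.2, against 201 and 119 (-1.10). Rplp2, which forms the stalk that recruits elongation factors, had 531 and 541, against 867 and 1208 (-0.93). Rpl32 had 632 and 531 FPKM in KO MII, against 825 and 1004 in WT MII (-0.65), a call lost without KO MII replicate 2 (adjusted p = 0.0564). For each of the 7 the KO libraries lay wholly below the WT libraries. In a fit of the 4 MII libraries alone, 30 members were higher and 4 lower, and Rps27, Rps4x, Rpl22l1, Rps12, Rplp2 and Rpl32 were not called (adjusted p = 0.0772 to 0.221). All 7 remained lower after median scaling, and 4 more were then called lower, Rpl13a, Rpl27, Rps2 and Rps16.

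**Figure D5:**
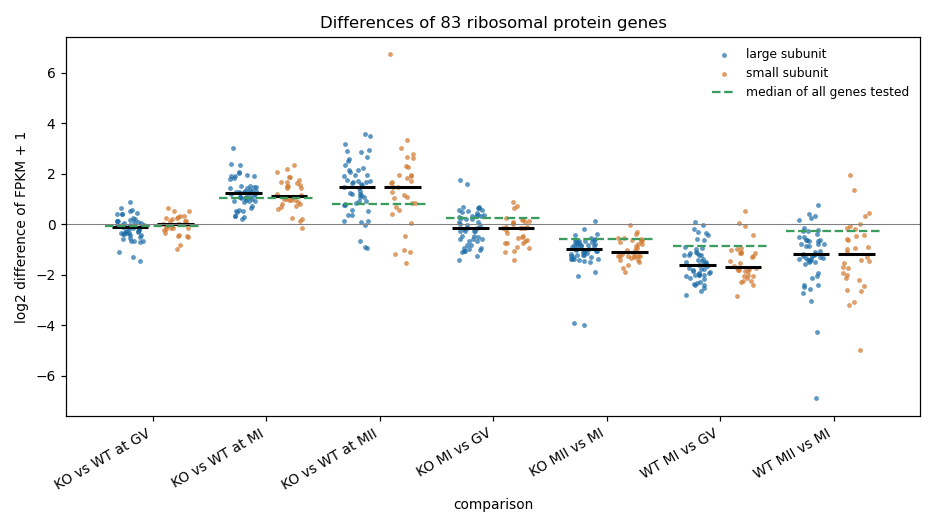
Points are tested members, large subunit left and small subunit right within each of the 7 comparisons (horizontal axis), with the log2 difference of FPKM + 1 on the vertical axis; black bars are subunit medians and dashed lines the median of all genes. The subunits sit at like heights throughout, and the members lie furthest below the dashed line in WT MII vs MI, where their median is -1.17.

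From MI to MII, the difference in change between the genotypes went both ways. The interaction was called higher for 9 members and lower for 7, against 2.81% and 3.71% of all genes, with a median of 0.03 in the members and -0.25 in all genes. On the median-scaled values the counts were 13 and 5, against 4.34% and 2.34% of all genes. Among members the count of higher calls was 2 without KO MI replicate 1, 4 without KO MII replicate 2, and 18 or 17 without WT MII replicate 1 or 2. The count of lower calls was 4 without KO MI replicate 1, KO MI replicate 2 or KO MII replicate 1.

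The polysome-bound levels of KO MII were also set beside those of WT MI, the stage before. The median log2 ratio of KO MII over WT MI was 0.16 in the members and 0.39 in all genes, and 75 of 83 members (90.4%) were within 2-fold, against 68.3% of all genes. The libraries did not overlap for 34 members with KO MII above and 18 with KO MII below, against 40.3% and 11.1% of all genes, and overlapped for 31. Spearman's rho of the levels was 0.92 across members and 0.88 across all genes, given as a description. No test of this pair was among those chosen.

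By role, the stalk proteins Rplp0, Rplp1 and Rplp2 did not move as one. Rplp0 had 531 and 644 FPKM at KO GV, 276 and 306 at KO MI, and 108 and 152 at KO MII, against 489 and 564, 105 and 213, and 146 and 121 in WT GV, MI and MII. At MII the genotypes of Rplp0 overlapped. Rplp1 had 769 and 1016, 1094 and 1163, and 716 and 718 FPKM in the 3 KO stages, against 910.3 and 1029.5, 819 and 715, and 498 and 473 in the 3 WT stages. Rplp2 had 818 and 849.5, 1238 and 1130.4, and 531 and 541 in KO, against 1022 and 966, 967 and 761, and 867 and 1208 in WT. Of the 3, Rplp2 had the genotypes in opposite order at MI and MII on the deposited scale.

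Rpsa, homologous to the laminin receptor precursor, was among the lower members, with 86 and 58.8 FPKM at KO GV, 117 and 108 at KO MI, and 57.4 and 51.7 at KO MII. In WT it had 141 and 141 FPKM at the GV stage, 45.7 and 33 at the MI stage and 9.59 and 18.5 at the MII stage. Rps3, at the mRNA entry site, had 95 and 83.2, 93.6 and 94.2, and 33.4 and 40.7 FPKM in KO, against 111 and 118, 41.1 and 53.6, and 26.7 and 23.1 in WT. Rps14, of the small subunit's platform, had 1212 and 1163, 1378 and 1271, and 772 and 599.6 FPKM in KO, against 953 and 1035, 319 and 415, and 263 and 410.4 in WT. In all 3 genes the KO libraries were above the WT libraries at MI and MII.

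Of 7 paralogues, 4 were below and 3 above their partner in mean level over the 12 libraries. Rpl10l, known from male germ cells, had 21.1 and 12.7 FPKM at KO GV, 23.9 and 18.5 at KO MI, and 24.3 and 21.3 at KO MII, against 20.2 and 19.6, 6.34 and 3.51, and 7.92 and 5.51 in WT, far below Rpl10. Rpl39l, also known from testis, had 227 and 146, 213 and 207, and 129 and 108 FPKM in KO, against 185 and 237, 72.7 and 80.3, and 43.9 and 42.6 in WT. Rpl39 had 1424 and 1674, 1389 and 1282, and 928 and 1036 FPKM in KO, against 1381 and 1434, 473 and 528, and 284 and 173 in WT. Rpl22l1 was above its partner at GV, with 158 and 151 FPKM in KO and 102 and 107 in WT, against Rpl22 with 36.8 and 49.9 in KO and 32.7 and 26.8 in WT. At GV, Rpl36al also lay above Rpl36a, with 1162 and 1283 FPKM in KO and 964 and 890.1 in WT, against 479 and 619.8 in KO and 535 and 469.7 in WT for Rpl36a. Rps27l lay above Rps27 in both WT libraries at MI and at MII. Coding sequences of paralogue and partner were 64.8% (Rpl7l1) to 87.9% (Rpl36al) identical. Without the paralogues the members' share of summed FPKM was 5.15%, 3.37% and 2.42% in KO and 4.95%, 2.49% and 2.07% in WT at GV, MI and MII.

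The medians of large-subunit and small-subunit members differed by less than the spread between single libraries in each of the 7 comparisons. That spread is the SD of the large minus small median level between single libraries, combined over the groups compared. It is wider than the spread of means of 2 libraries, so it is a loose yardstick. In KO relative to WT, 40 of 51 large and 23 of 32 small members rose at MI, and 36 and 23 rose and 3 and 4 fell at MII. In KO, 6 large and 2 small members rose and 8 and 3 fell from GV to MI, and 25 and 19 fell from MI to MII. In WT, 39 large and 26 small members fell from GV to MI, and 33 and 22 fell from MI to MII. The median of the large minus that of the small subunit was 0.11 (replicate SD 0.20) for KO against WT at MI and 0.01 (SD 0.31) at MII. It was 0.08 (SD 0.18) and 0.03 (SD 0.25) for the WT steps to MI and to MII, and 0.00268 (SD 0.185) and 0.11 (SD 0.27) for those of KO. At GV it was -0.13 (SD 0.16), and 5 of 51 large and 1 of 32 small members fell in KO relative to WT. The ratio of summed FPKM, large over small, was 1.53 ± 0.0462 in KO GV and 1.798 ± 0.0193 in WT GV. It lay between 1.89 and 1.93 in the other 4 groups. This ratio differed between the genotypes at GV by more than the SD of either group. Sums weigh abundant members more than medians do. Rpl5, Rpl10, Rpl13, Rpl11 and Rpl35, called lower in KO GV (the last 3 less securely), are all of the large subunit. Their part in this ratio was not tested.

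Members with and without TTTTAT in the 3′UTR were then described side by side. At KO MII the 16 members with the motif had a median of 64.0% of their GV level left, against 38.0% for the 66 without. At WT MII the medians were 32.6% with the motif and 10.9% without, and the ranges, 5.31% to 292% with it and 0.004% to 178% without, overlapped widely. Of the 12 members with the highest share left at WT MII, 7 held the motif, 4 did not and 1, Rpl41, was not matched to a 3′UTR. By contrast, a pyrimidine run of at least 8 bases in the printed start window went with medians of 37.9% at KO MII and 13.9% at WT MII in 33 members, against 44.6% and 14.6% in the 48 without. Genes of similar sequence are not independent points, and no test was made.

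Genes that act with the ribosomal proteins were counted from 4 lists. Of 73 tested ribosome assembly factors, 24 were higher and 1 lower in KO than in WT at MI, against 27.9% and 0.463% of all genes, and 30 were higher and 3 lower at MII, against 25.4% and 3.2%. From GV to MI in WT, 4 of these factors rose and 23 fell, against 3.06% and 21.7% of all genes, with a median of -1.16 and one of -0.87 over all genes. The 1 lower at MI was Rrs1, which helps to place the 5S ribonucleoprotein, with 12.4 and 8.57 FPKM in KO MI, against 79.1 and 54.7 in WT MI (log2 difference -2.56, limma adjusted p = 0.00329). Of 19 genes of RNA polymerase I and rDNA transcription, 10 were higher and 0 lower at MI, and 8 and 2 at MII. Of 23 other transcripts with a TOP motif, such as translation factors, 13 were higher and 0 lower at MI, and 12 and 2 at MII. Of 26 genes of the mTOR pathway and TOP-binding regulators, 9 were higher and 0 lower at MI, and 7 and 0 at MII. The medians at MI were 1.02, 1.09, 0.74 and 1.17 in these 4 lists, against 1.03 over all genes. After median scaling few of these calls at MI remained. In the order of the lists, 2, 0, 0 and 0 were then higher and 4, 0, 3 and 1 lower, against 1.88% and 2.83% of all genes. At MII, 18, 5, 6 and 3 were higher and 4, 2, 3 and 3 lower, against 14.5% and 10.4%.

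Ribosomal proteins outside the symbol rule took different courses. Fau, which encodes a ubiquitin-like protein fused to Rps30, had 1189 and 995 FPKM at KO GV, 1458 and 1673 at KO MI, and 872 and 864 at KO MII. In WT, Fau had 1233 and 1357 FPKM at the GV stage, 443 and 334 at the MI stage and 144 and 186 at the MII stage, so it was lower at each stage there. Its log2 difference between KO and WT was 2.02 at MI and 2.40 at MII. Gnb2l1, the scaffold protein Rack1 on the small subunit, had 99.0 and 111 FPKM in KO MII, against 291 and 288 in WT MII (log2 difference -1.46, limma adjusted p = 1.40e-04). In WT it rose from MI to MII (1.40), as Rps27l and Rpl41 did.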

How the data were processed

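The authors deposited FPKM values, 1 column per library for 23235 genes, which were used as deposited. Per the submitters' processing notes, the tools were Cufflinks 2.2.1, TopHat2 2.0.11, Bowtie2 2.1.0 and CASAVA 1.8, and the build was mm9; no role or order is stated. The sources used here do not give the annotation, the strand setting, the handling of reads with several matches or the read depth, so precision is judged from the 2 libraries of each group alone. The totals of FPKM differ between libraries, so scalings that remove this were run as alternatives.

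The log2(FPKM + 1) values of 11667 genes whose mean FPKM reached 1 entered the tests. The 6 group means were fitted with limma 3.58.1 (R 4.3.3) over all 12 libraries with an abundance trend (residual df 6, prior df 4.27). Benjamini-Hochberg adjustment ran over all tested genes, 2-sided, and a call is an adjusted p below 0.05. An interaction is the KO stage change minus the WT stage change. A fold change on this scale understates that of low genes. The fit was tested on simulated data. Each alternative changed 1 choice: the pseudocount (0.1), the filter (none), the scaling (TPM, quantile normalization, or median scaling on genes whose mean FPKM reached 10), the libraries fitted (only the groups compared, or all but 1) and the replicate block.

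Transcripts came from GENCODE mouse release M1 (same build), which matched 83 of 84 members. 3′UTRs were kept up to the 3′ end that the table gives. Copies were searched with BLAST+ 2.17.0. Members, lists and tests were chosen with earlier results of these data known. Genes named are the 4 of highest level per subunit, up to 3 called members of largest change per comparison, subunit and direction with libraries that do not overlap and at least 5 FPKM, members fixed for their role, and paralogue pairs; others were chosen after their values were seen. Replicate numbers did not pair the libraries: over 15 pairs of groups the correlation of same-numbered deviations was -0.0292 to 0.0547. A few genes are not reported here by name.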

Additional observations from a re-analysis of the deposited data

Results flagged for a closer look

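The change between stages differed between the genotypes by the interaction test (KO change minus WT change, limma over all tested genes) for 43 members from GV to MI and 16 from MI to MII. Those named here were taken by the naming rule, up to 3 per subunit and direction, and the pattern was noted in the same libraries that gave the values. From GV to MI the difference was 2.61 for Rpl14 (adjusted p = 4.34e-05), 3.06 for Rpl23 (adjusted p = 0.00262) and 2.97 for Rpl5 (adjusted p = 7.55e-05). On the small subunit it was 2.00 for Rps13 (adjusted p = 0.00118), 2.59 for Rps19 (adjusted p = 2.06e-05) and 2.49 for Rpsa (adjusted p = 0.00874). All 6 were higher in KO MI than in WT MI in both libraries. The interaction also holds the difference between the genotypes at GV. That log2 difference was -1.47 for Rpl5 and -0.98 for Rpsa (not called), beside 1.51 for each at MI. It was -0.42 for Rps19, -0.22 for Rpl14, -0.14 for Rps13 and -0.04 for Rpl23. The calls of Rpl23, Rps13 and Rpsa were lost after median scaling, with adjusted p = 0.106, 0.161 and 0.25, and under TPM and quantile normalization. The median interaction of all genes was 1.13.

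From MI to MII the difference was positive, a smaller loss in KO, for Rpl5 at 1.98 (adjusted p = 0.00142), Rps27a at 2.37 (adjusted p = 5.81e-04), Rps9 at 1.60 (adjusted p = 0.00989), Rpl17 at 1.40 (adjusted p = 0.0182), Rpl36a at 1.60 (adjusted p = 0.0271) and Rps25 at 1.83 (adjusted p = 0.0475). Leaving out 1 library ended the calls of Rpl17 (without KO MI replicate 1, KO MII replicate 1 or 2, or WT MI replicate 1 or 2, adjusted p = 0.0514 to 0.0915), Rpl36a (without KO MI replicate 1 or 2, KO MII replicate 1 or 2, or WT MI replicate 2, 0.0805 to 0.112) and Rps9 (without KO MI replicate 1, 0.0524). The call of Rps25, which shares 29.1% of its exon bases with Ccdc84 on the other strand, was lost without any of 10 libraries (0.0649 to 0.165).

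The difference was negative for Rpl41 at -1.17 (adjusted p = 2.26e-04), Rps27l at -1.41 (adjusted p = 0.00295), Rpl32 at -1.30 (adjusted p = 0.00330), Rplp2 at -1.39 (adjusted p = 0.00434), Rps15a at -2.26 (adjusted p = 0.0242) and Rps16 at -1.44 (adjusted p = 0.0298). Rpl41, Rps27l and Rplp2 kept their calls without any 1 library. Rps15a lost it without any of the 4 KO MI and KO MII libraries (adjusted p = 0.0765 to 0.111), and Rps16 without any of 8 libraries (0.0539 to 0.110). The call of Rps16 was also lost under TPM (0.0591), median scaling (0.0665) and quantile normalization (0.19), and those of Rpl32 (0.0678) and Rps15a (0.065) under quantile normalization. Rps16 had 118 and 192 FPKM in KO MII and 303 and 307 in KO MI, against 181 and 248 in WT MII and 169 and 146 in WT MI.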

How the results depend on the processing

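The pseudocount of 0.1 and the absence of a filter left every count of called members within 1.5 times its value, but both ended the calls of Rpl10 at MI (adjusted p = 0.053 and 0.0747) and of the Rps25 interaction (0.051 and 0.0849), and the absence of a filter those of Rpl41 at MI (0.0592) and of the Rps16 interaction (0.0537). Rescaling moved more counts. KO against WT at GV gave 3 lower under TPM, and 0 in a fit of only its groups. At MI, 20, 11 and 13 were higher and 3, 5 and 2 lower under TPM, median scaling and quantile normalization. At MII, 36 were higher and 11 lower under median scaling, and 30 and 4 in a fit of only its groups. For WT MI vs GV, 2, 7 and 1 rose under TPM, median scaling and quantile normalization, and 33 fell under median scaling. For WT MII vs MI, 5 and 7 rose under TPM and median scaling, while a fit of only its groups called 0 in either direction. For KO MI vs GV, 2, 3 and 2 rose and 34, 23 and 35 fell under the 3 scalings, and 18 fell in a fit of only its groups. For KO MII vs MI, 10, 7 and 7 fell. The interaction to MI gave 8, 7 and 8 higher, with 1 lower under TPM and 3 under median scaling. The interaction to MII gave 4 higher in a fit of only its groups and 3 lower under quantile normalization. The log2 difference of Rpl10 at MI reversed to -0.31, -0.69 and -0.22, and that of Rpl41 to -0.38, -0.75 and -0.16. The large minus small median of KO MI vs GV was 0.209 under quantile normalization. The cause of these moves was not tested.

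Leaving out each library in turn gave 3 to 7 lower at GV, 36 to 74 higher at MI, and 51 to 60 higher with 7 lower at MII. It gave 51 to 69 lower and 0 to 1 higher for WT MI vs GV, and 45 to 52 lower and 3 to 4 higher in the WT step to MII. In KO MI vs GV, 5 to 11 rose and 4 to 23 fell, and for KO MII vs MI 20 to 67 fell. The interaction to MI was called higher for 30 to 59, and that to MII for 2 to 18 higher and 4 to 9 lower. At GV the count was 3 without KO GV replicate 1 or WT GV replicate 1. The 1 rise in WT MI vs GV came without WT MI replicate 1. Large minus small ran from 0.0027 to 0.3278 for KO MI vs GV and from -0.2102 to 0.3511 for KO against WT at MII. A lone library was then assumed to vary like the other groups.

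With the replicate block, 5 were lower at GV, 61 higher at MI, 59 higher and 7 lower at MII, 63 lower in WT MI vs GV, 3 higher and 54 lower in WT MII vs MI, 8 higher and 12 lower in KO MI vs GV, and 45 lower in KO MII vs MI. The interactions gave 41 higher, then 9 higher and 6 lower. Among members named with a difference, the block ended the calls of Rpl11 at GV (adjusted p = 0.051) and of the Rps25 interaction (adjusted p = 0.063) and no other.

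Without the 5 highest members, shares were 4.36%, 2.58% and 1.84% in KO and 4.06%, 1.92% and 1.45% in WT, and without the paralogues 5.15%, 3.37% and 2.42% in KO and 4.95%, 2.49% and 2.07% in WT. No table here tests what size of difference could be detected.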
